A study of Mus musculus with 36 samples.

Results

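The Slc25 family comprises the mitochondrial solute carriers, the proteins that move nucleotides, phosphate, keto acids, amino acids, cofactors, iron and glutathione across the inner mitochondrial membrane. Members were chosen by symbol: each row of the raw count table whose mouse symbol is Slc25a followed by a number. This gave 47 of the 56980 genes in the table, of which 46 passed the filter on low counts among 25601 genes tested. Slc25a54 did not pass it. RNA was sequenced from brain tissue of 36 mice aged 37 to 45 days, with the polyA fraction selected. The tissue label is brain, while the series text names hippocampus and cortex, so the share of each region per library is not known. The animals were either wild type (WT) or Ndufs4 knockout (KO). For 3 days they were gavaged with vehicle or with CP2, which inhibits complex I of the respiratory chain. Titles carry the letter F or M. KO CP2 F, KO vehicle F, WT CP2 F, WT vehicle F, KO CP2 M and WT CP2 M held 5 animals each, and KO vehicle M and WT vehicle M held 3 each. Strain and the tissues that carry the Ndufs4 deletion are not given in the sources used here.

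A carrier of this family typically folds as a bundle of membrane helices built from a repeated motif and exchanges a substrate on the cytosolic side for another in the matrix. The respiratory chain depends on these carriers: ADP and phosphate must enter for ATP synthesis, and the malate-aspartate shuttle brings reducing equivalents from cytosolic NADH to complex I. Mitoferrins bring iron to the matrix, where it is built into heme and the iron-sulfur clusters that complex I contains. Ndufs4 encodes an accessory subunit of complex I.

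Gene counts summed to between 46124548 and 88559920 per library. Ndufs4, measured over the whole gene, was lower in KO than in WT without overlap in each of the 4 comparisons of letter and treatment. Its log2 difference was -0.65 with vehicle (SE 0.07, adjusted p = 3.75e-07) and -0.45 with CP2 (SE 0.06, adjusted p = 3.21e-06). KO animals still held 27.4 to 39.1 CPM (counts scaled to a common TMM library size) against 38.9 to 62.8 in WT. The part of the gene deleted is not given in the sources used here, so its remaining level is no measure of the deletion. Xist and Ddx3y followed the title letter except that KO CP2 M animal L291 had 47.3 CPM of Xist, where the other M animals had at most 0.83. KO CP2 F animal L201 stood apart in cerebellar granule cell genes, with 230 CPM summed over Gabra6 and Cbln3. KO CP2 F animal L233 had 23.9 CPM and every other animal had less. Results without L201 are given for members called in comparisons that use KO CP2 F. The fraction of each library that fell in no annotated gene, here the out-of-gene share, ranged from 5.09% to 13.2% and moved with the groups. It was 6.19% to 11.7% in KO vehicle F against 5.09% to 7.04% in WT vehicle F, and 5.18% to 9.06% in KO CP2 M against 9.05% to 13.2% in WT CP2 M. Calls of members that ended with this share as a covariate are given with their values.

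The family's summed level was between 2716 and 3202 CPM per animal. Per exon length, 5 members made up 58.4% of the family's summed level. Slc25a4, the ADP/ATP exchanger of heart, muscle and brain, had the highest mean level at 222 RPKM (CPM further scaled by exon length in kilobases). Slc25a5, its widely expressed paralog, followed at 105 RPKM. Slc25a23, a calcium-regulated ATP-Mg/phosphate carrier, had 67.8 RPKM and the phosphate carrier Slc25a3 had 59.8 RPKM. The oxoglutarate/malate carrier Slc25a11 had 44.3 RPKM, the glutamate carrier Slc25a18, known from astrocytes, 41.7 RPKM, and the other glutamate carrier, Slc25a22, 37.0 RPKM. Of the 2 aspartate/glutamate carriers, Slc25a12 (aralar), the form known from brain, had 24.6 RPKM and Slc25a13 (citrin), the form known from liver, 1.02 RPKM. In all, 7 members had a mean of at least 100 CPM, 33 had at least 10 CPM and 40 tested members had at least 1 CPM.

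The 7 members under a mean of 1 CPM were Slc25a21 at 0.79 CPM, Slc25a43 at 0.19, Slc25a2 at 0.13, Slc25a41 at 0.10, Slc25a31 at 0.10, Slc25a48 at 0.09 and Slc25a54 at 0.07. The lowest of these, Slc25a54, had 137 counts over all libraries. Slc25a31 encodes the testis ADP/ATP carrier. At such levels log2 differences are wide: Slc25a31 gave 2.21 for KO over WT in the F vehicle animals and was not called. None of the 6 of these that were tested was called by edgeR in any comparison.

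**Figure D1:**
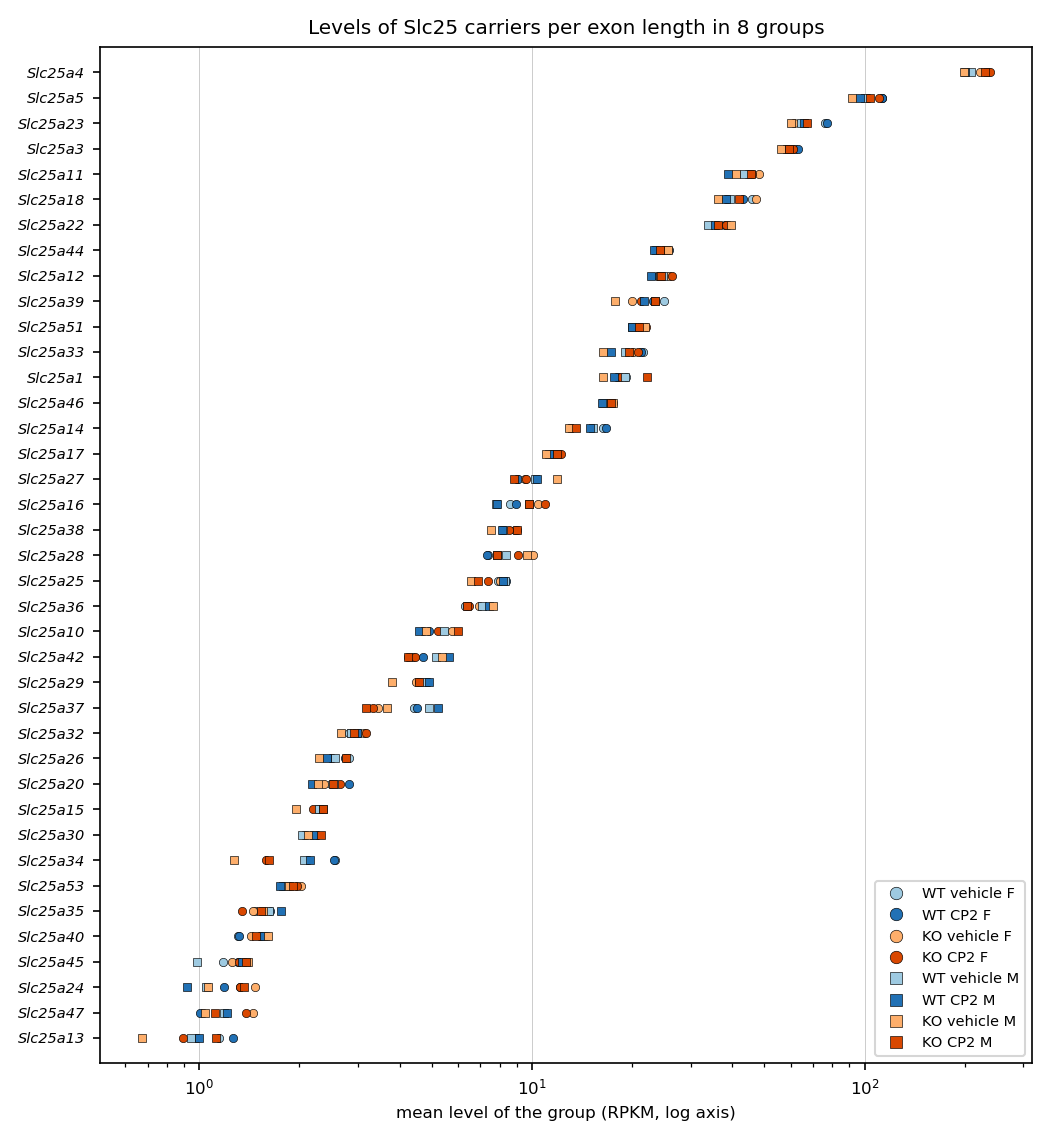
Mean level per exon length (RPKM, log axis) of 39 tested Slc25 members with a mean of at least 1 CPM, ordered by level, with a point per group of genotype, treatment and title letter (circles F, squares M). Slc25a4 lies highest at a mean of 222 RPKM and Slc25a13 lowest of those drawn at 1.02, and for most members the 8 points lie close together.

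With vehicle, averaged over F and M, 7 of 46 members were called at an adjusted p under 0.05 in KO against WT (edgeR quasi-likelihood test, Benjamini-Hochberg adjustment over all genes tested). Among them Slc25a16 and Slc25a28 rose, and Slc25a37, Slc25a39, Slc25a14 and Slc25a23 fell. Of all genes tested, 6.67% were called in that comparison. The median log2 difference of the members was -0.05, against 0.02 over all genes. With CP2, 10 of 46 members were called in KO against WT, where 11.6% of all genes were. Among them Slc25a16, Slc25a10, Slc25a11 and Slc25a12 rose, and Slc25a37, Slc25a34, Slc25a14, Slc25a42 and Slc25a25 fell. The members' median was 0.03, against 0.01 over all genes. Without L201, 9 members were called. Slc25a16 was then 0.30, Slc25a10 0.24, Slc25a11 0.16, Slc25a12 0.12, Slc25a25 -0.20 and Slc25a34 -0.57, with an adjusted p of 0.00134 to 0.0404, while the call of Slc25a42 ended (-0.23, adjusted p = 0.0617).

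These 2 comparisons share no animal. Called with vehicle and again with CP2 were 4 members, each in the same direction, among them Slc25a37, Slc25a14 and Slc25a16. They are 57.1% of the vehicle list and 40% of the CP2 list. Over all genes, 587 were called in both, 34.4% of the vehicle list and 19.8% of the CP2 list, and 577 of them had the same direction. In bulk tissue, fewer cells that express a gene and less of its RNA per cell cannot be told apart.

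**Figure D2:**
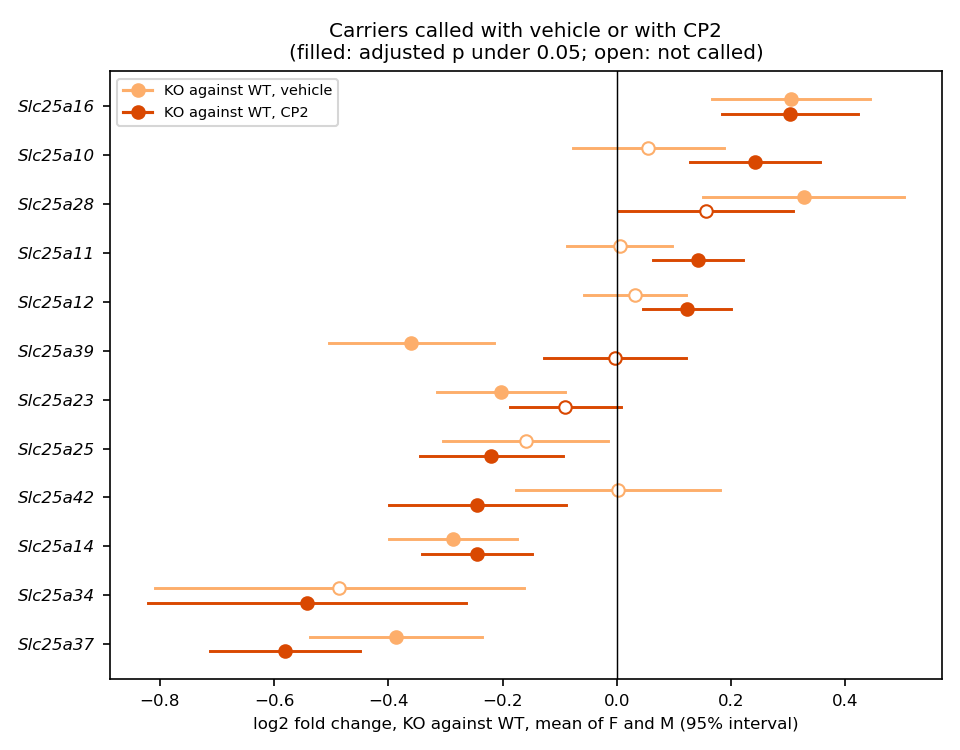
Log2 fold change of KO against WT, averaged over F and M, for members called with vehicle or with CP2, with 95% intervals. Filled points have an adjusted p under 0.05. Slc25a37 is the lowest with CP2 at -0.58, Slc25a16 lies at 0.30 under both treatments, and Slc25a39 lies at -0.36 with vehicle and near 0 with CP2.

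Within single letters 0 to 7 members were called. With vehicle in F, 7 members were called and 4.96% of all genes. With the covariate 0 of these 7 calls remained, and 5 of them were Slc25a28 at 0.24 (adjusted p = 0.393), Slc25a10 at 0.29 (0.165), Slc25a16 at 0.27 (0.226), Slc25a14 at -0.20 (0.186) and Slc25a39 at -0.17 (0.477). With vehicle in M, 3 animals a group, edgeR called 0 members and 0.516% of all genes, while 8 members had an unadjusted p under 0.05 and DESeq2 called 2. With CP2 in F, 2 members and 2% of all genes were called. With CP2 in M, 5 members and 9.99% of all genes were called.

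Promoters are shown for the 4 members with the largest called vehicle effects among those that had an entry, so that the sequence upstream of a gene lower in KO can be read beside genes higher in KO. Of the 7 members called with vehicle, 5 matched the RefSeq promoter table (build GRCm38.p6), and 36 of the family did. Each window runs from 250 bases before to 50 after the start, on the gene's strand, 5′ to 3′. Capitals mark matches, on either strand, to GGGCGG (the GC box), CCAAT (the CCAAT box), CACGTG (the E-box), TGACG (the core of the cyclic AMP response element), TGCGCA or AAGGTCA. In Slc25a14 a CACGTG and a TGACG overlap. Slc25a39 and Slc25a14 fell in KO with vehicle, and Slc25a28 and Slc25a16 rose.
Slc25a39, chr11:102407468-102407767, minus strand: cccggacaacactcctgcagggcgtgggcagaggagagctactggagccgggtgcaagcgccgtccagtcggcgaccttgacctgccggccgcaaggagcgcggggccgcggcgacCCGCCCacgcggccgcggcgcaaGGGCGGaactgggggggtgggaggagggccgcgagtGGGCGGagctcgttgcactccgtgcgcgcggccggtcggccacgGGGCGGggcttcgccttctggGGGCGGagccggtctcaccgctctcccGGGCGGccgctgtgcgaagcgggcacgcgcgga
Slc25a14, chrX:48623198-48623497, plus strand: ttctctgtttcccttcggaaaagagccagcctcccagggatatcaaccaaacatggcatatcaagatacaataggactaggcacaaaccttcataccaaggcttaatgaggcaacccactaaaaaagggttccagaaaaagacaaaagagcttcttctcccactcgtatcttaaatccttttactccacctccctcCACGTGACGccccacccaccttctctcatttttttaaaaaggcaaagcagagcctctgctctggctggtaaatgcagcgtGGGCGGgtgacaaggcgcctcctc
Slc25a28, chr19:43674832-43675131, minus strand: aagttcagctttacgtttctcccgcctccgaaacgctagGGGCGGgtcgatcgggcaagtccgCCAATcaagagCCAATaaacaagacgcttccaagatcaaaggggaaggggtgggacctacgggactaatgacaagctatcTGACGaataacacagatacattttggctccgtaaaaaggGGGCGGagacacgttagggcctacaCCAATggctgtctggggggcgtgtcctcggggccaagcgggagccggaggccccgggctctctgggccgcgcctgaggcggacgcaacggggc
Slc25a16, chr10:62920383-62920682, plus strand: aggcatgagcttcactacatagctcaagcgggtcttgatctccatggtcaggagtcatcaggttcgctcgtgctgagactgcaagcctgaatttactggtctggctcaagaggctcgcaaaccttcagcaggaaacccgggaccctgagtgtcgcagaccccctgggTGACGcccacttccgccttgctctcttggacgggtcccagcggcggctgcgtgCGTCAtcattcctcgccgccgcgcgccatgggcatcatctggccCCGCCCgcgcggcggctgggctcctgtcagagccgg

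The Slc25a39 window held 6 GC boxes and was 77.3% G or C, that of Slc25a28 held 2 GC boxes, 3 CCAAT and 1 TGACG, that of Slc25a16 held 1 GC box and 2 TGACG, and that of Slc25a14, the first of its 3 listed starts, held 1 GC box, 1 E-box and 1 TGACG and was 48.3% G or C. A GC box occurred in 30 of the 36 members' windows (83.3%) and in 35.9% of the 27025 genes' windows in the table, and CCAAT in 47.2% and 38.02%. CACGTG occurred in 16.7% of the members' windows and 7.24% of all, TGACG in 27.8% and 20.9%, TGCGCA in 11.1% and 8.07%, and AAGGTCA in 2.78% and 4.65%. These are matches of letters, not sites of binding.

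Carriers of iron and glutathione held the member with the largest called change in KO brain. Slc25a37 (ENSMUSG00000034248, chromosome 14) encodes mitoferrin-1, an iron importer of the inner membrane best known from developing red cells. With vehicle in F it was 23.7, 24.8, 26.04, 26.997 and 31.3 CPM in WT and 18.4, 20.7, 20.9, 21.5 and 22.2 CPM in KO. With vehicle in M it was 28.3, 29.3 and 30.97 CPM in WT and 21.8, 21.8 and 22.9 CPM in KO. Every KO animal given vehicle lay below every WT animal of its letter.

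With CP2 in F, Slc25a37 was 25.2, 26.6, 26.7, 28.4 and 29.4 CPM in WT and 16.3, 18.2, 20.1, 20.8 and 24.9 CPM in KO. With CP2 in M it was 26.5, 31.7, 32.03, 33.4 and 33.6 CPM in WT and 16.2, 18.05, 18.95, 18.96 and 23.3 CPM in KO. Again the genotypes did not overlap in either letter, and the gap was widest in M. The log2 fold change of KO against WT was -0.39 with vehicle (SE 0.08, adjusted p = 0.00159) and -0.58 with CP2 (SE 0.07, adjusted p = 2.98e-07), or 0.77-fold and 0.67-fold. In the separate letters it was -0.36 in F and -0.42 in M with vehicle (adjusted p = 0.0209 and 0.103), and -0.44 in F and -0.72 in M with CP2 (adjusted p = 0.00939 and 3.42e-06). The genotype effect did not pass the test for a difference between treatments (log2 difference -0.19, 95% interval -0.39 to 0.00, adjusted p = 0.377).

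Red cell genes moved with genotype in the vehicle animals. Summed over Hbb-bs, Hbb-bt, Hba-a1, Hba-a2 and Alas2, they held 85.1 to 387 CPM in WT and 74.8 to 129 CPM in KO in F, and 115 to 647 CPM in WT and 38.6 to 87.3 CPM in KO in M. Of the 5 genes, 4 were called lower in KO with vehicle. With CP2, 0 of 5 were called. Averaged over F and M, 6.67% of all genes were called in KO against WT with vehicle and 11.6% with CP2. In the M animals given CP2, red cell genes held 74.6 to 130 CPM in WT and 23.4 to 193 in KO. With their summed level as a covariate, an alternative chosen after the data were seen, Slc25a37 was -0.44 with vehicle (adjusted p = 0.00541) and -0.60 with CP2 (adjusted p = 2.63e-07). Adjusted for the out-of-gene share, it was -0.37 (adjusted p = 0.0276) and -0.59 (adjusted p = 1.32e-06). With vehicle in M the red cell sums did not overlap between genotypes, so genotype and red cell level cannot be told apart there. Whether red cell content has a part in the Slc25a37 differences was not tested.

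Leaving out any 1 animal kept both averaged calls of Slc25a37, at -0.40 to -0.35 with vehicle and -0.62 to -0.55 with CP2. The call with vehicle in F ended without KO animal L246 or L281 or WT animal L252 or L296, with an adjusted p of 0.0536 to 0.0907, and with the out-of-gene share as a covariate (adjusted p = 0.15). Without L201 the CP2 value in F was -0.38 (adjusted p = 0.0482). Of the exon length of Slc25a37, 6.33% is shared with genes on the opposite strand, Gm27223 and Gm31748, and whether the counting used strand is not given in the sources used here.

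**Figure D3:**
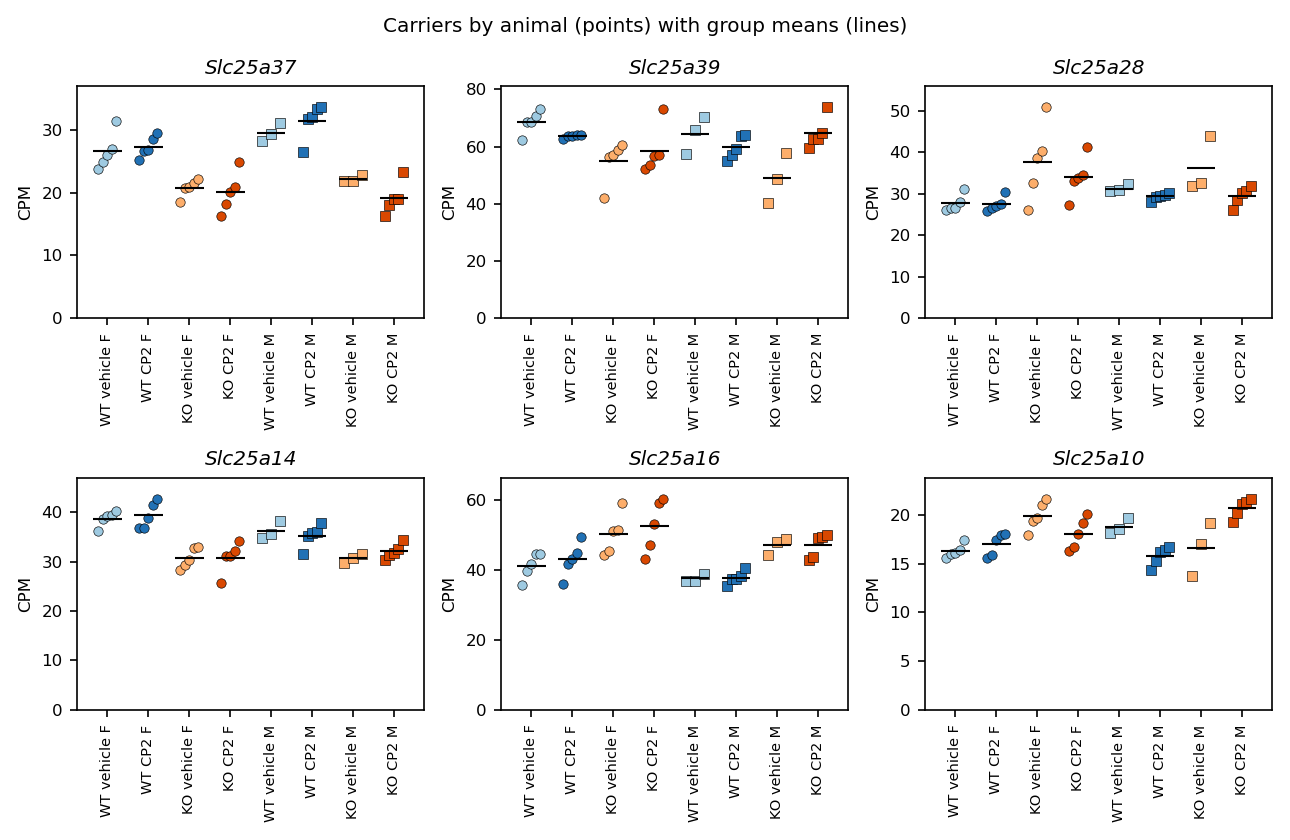
CPM of 6 carriers in every animal, with points for animals (circles F, squares M) and a line at each group's mean. Slc25a37 and, except with CP2 in M, Slc25a14 lie lower in KO than in WT without overlap. Slc25a16 lies higher in KO on average in each pair of groups.

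Slc25a28 (ENSMUSG00000040414, chromosome 19) encodes mitoferrin-2, the iron importer found in most tissues. In F given vehicle it was 26.2, 26.6, 26.7, 28.1 and 31.3 CPM in WT and 26.1, 32.7, 38.6, 40.3 and 50.9 CPM in KO. In M given vehicle it was 30.6, 30.9 and 32.3 CPM in WT and 31.9, 32.7 and 44.04 CPM in KO. KO animals spread far more than WT animals and overlapped them in both letters. The log2 fold change was 0.33 with vehicle (SE 0.09, adjusted p = 0.0208), opposite in sign to its paralog Slc25a37.

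With CP2, Slc25a28 did not pass the test: 0.16 (SE 0.08, adjusted p = 0.205), with 25.9 to 30.4 CPM in WT F, 27.4 to 41.4 in KO F, 28.1 to 30.3 in WT M and 26.2 to 31.98 in KO M. The vehicle call ended without KO F animal L281, the highest at 50.9 CPM (0.27, adjusted p = 0.0516), without KO M animal L322, the highest at 44.04 CPM (0.25, adjusted p = 0.148), and without WT M animal L300 (0.33, adjusted p = 0.0566). It also ended with the out-of-gene share as a covariate (0.16, adjusted p = 0.47).

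Slc25a39 (ENSMUSG00000018677, chromosome 11) is needed for glutathione import. With vehicle in F it was 62.2, 68.5, 68.7, 70.8 and 73.0 CPM in WT and 41.9, 56.4, 57.2, 58.8 and 60.7 CPM in KO, without overlap. With vehicle in M it was 57.4, 65.7 and 70.3 CPM in WT and 40.2, 48.7 and 57.6 CPM in KO. There the highest KO animal lay just above the lowest WT animal. The averaged log2 fold change was -0.36 (SE 0.07, adjusted p = 0.00202), and leaving out any 1 animal kept that call. The call in F alone ended in 5 of 10 such fits, at an adjusted p of 0.0505 to 0.147, the highest without L281.

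With CP2 the genotypes overlapped in Slc25a39 in both letters. In F every KO animal except L234 lay below every WT animal, while in M KO was higher on average. WT F animals held 62.8, 63.8, 63.8, 63.9 and 64.1 CPM and KO F animals 52.3, 53.7, 56.6, 57.1 and 73.1 CPM, while WT M animals held 54.9 to 64.1 CPM and KO M animals 59.7 to 73.8 CPM. Averaged over these opposite directions, the log2 fold change was 0.00 (95% interval -0.13 to 0.12, adjusted p = 0.987). Within KO, CP2 animals were higher than vehicle animals by 0.25 (SE 0.07, adjusted p = 0.0315), the only member called in that averaged comparison with all animals, where 3.91% of all genes were called. Without L201, 4 members were called there, among them Slc25a39 (0.26, adjusted p = 0.0168) and Slc25a27 (-0.25, adjusted p = 0.0368). The test of the difference between genotypes in the CP2 effect gave 0.36 (SE 0.10, adjusted p = 0.0649), which missed the threshold.

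The level of Slc25a39 was lowest in 3 animals with a high out-of-gene share, KO vehicle F animal L281 and KO vehicle M animals L319 and L322. Other animals with a high share were not as low: WT CP2 M animals L263 (13.2%) and L262 (12.8%) had 57.1 and 59.0 CPM. Whether the share causes the low values was not tested. With that share as a covariate the vehicle effect was -0.24 (adjusted p = 0.111) and the CP2 effect in KO 0.10 (adjusted p = 0.833). The CP2 call in KO also ended without any of 6 animals, at an adjusted p of 0.0528 to 0.19, the highest without L322; the others were L281, L319, L234, L266 and L292. Slc25a40, its paralog with the same role, did not pass the test with vehicle (0.08, adjusted p = 0.629) or CP2 (0.07, adjusted p = 0.607).

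**Figure D4:**
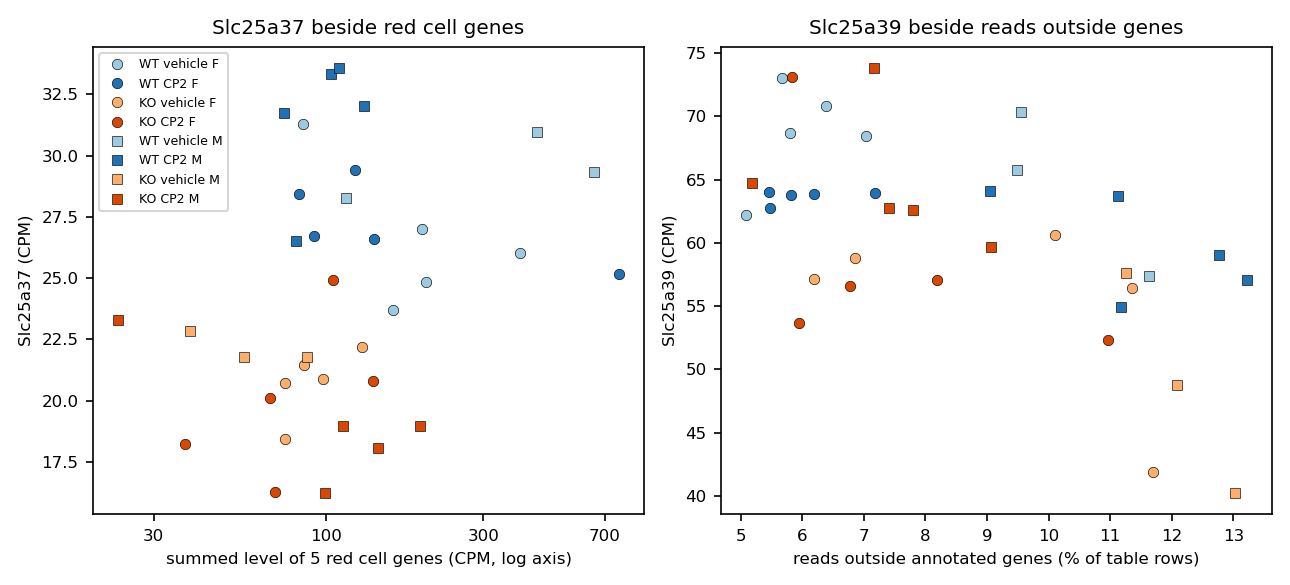
Left, Slc25a37 (CPM) against the summed level of 5 red cell genes (CPM, log axis). Right, Slc25a39 (CPM) against the out-of-gene share. Each point is an animal (circles F, squares M). Within each letter and treatment KO animals lie below WT animals in Slc25a37, while over all groups the genotypes overlap. The lowest Slc25a39 values, 40.2 and 41.9 CPM, lie among the highest out-of-gene shares, where other animals lie higher.

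Of the uncoupling protein related carriers, Slc25a14 was lower in KO. Slc25a14 (ENSMUSG00000031105, X chromosome; also named UCP5 or BMCP1) and Slc25a27 (UCP4) are the forms known from brain. In vehicle F animals Slc25a14 was 36.1, 38.5, 39.3, 39.3 and 40.1 CPM in WT and 28.2, 29.3, 30.2, 32.7 and 33.04 CPM in KO. In vehicle M animals it was 34.7, 35.6 and 38.2 CPM in WT and 29.7, 30.8 and 31.4 CPM in KO. Neither letter overlapped.

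With CP2 in F, Slc25a14 was 36.7, 36.8, 38.9, 41.5 and 42.7 CPM in WT and 25.6, 31.1, 31.1, 32.1 and 34.3 CPM in KO, again apart. With CP2 in M it was 31.5, 35.2, 35.8, 35.99 and 37.9 CPM in WT and 30.4, 31.4, 31.7, 32.6 and 34.3 CPM in KO, which overlapped through WT animal L262. The log2 fold change was -0.29 with vehicle (SE 0.06, adjusted p = 0.00152) and -0.24 with CP2 (SE 0.05, adjusted p = 0.000722). Leaving out any 1 animal kept both calls, and without L201 the CP2 value was -0.22 (adjusted p = 0.00163). Fitted with the out-of-gene share as covariate, it was -0.18 with vehicle (adjusted p = 0.108) and -0.30 with CP2 (adjusted p = 1.86e-05).

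Slc25a27 did not pass the test in KO against WT with vehicle (0.15, adjusted p = 0.242) or CP2 (-0.08, adjusted p = 0.52). In KO M it fell with CP2. It was 43.3, 43.4 and 54.2 CPM with vehicle and 29.1, 34.7, 36.4, 36.7 and 37.4 CPM with CP2, without overlap, for a log2 fold change of -0.43 (SE 0.11, adjusted p = 0.0149). Without vehicle animal L322, at 54.2 CPM, it was -0.31 (adjusted p = 0.245), and without CP2 animal L292 it was -0.38 (adjusted p = 0.0525). In KO F the difference was 0.00, and the test of F against M gave 0.43 (adjusted p = 0.134). Slc25a30 was not called in any comparison.

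In KO M, 3 members were called for CP2 against vehicle, where 5.1% of all genes were: Slc25a27, Slc25a39 (0.41, SE 0.11, adjusted p = 0.0171) and Slc25a10 (0.32, SE 0.10, adjusted p = 0.0429). All 3 calls ended without KO vehicle M animal L322, at an adjusted p of 0.245, 0.257 and 0.439. That of Slc25a39 ended also without L319 (adjusted p = 0.0665) or L292 (0.0587), and that of Slc25a10 in 6 of 8 fits that left out 1 animal, at an adjusted p of 0.06 to 0.439 (without L291, L292, L298, L299, L319 or L322). With the out-of-gene share as a covariate the values were -0.16, 0.18 and 0.32 (adjusted p = 0.74, 0.685 and 0.389). That share was 11.3% to 13.03% in KO vehicle M and 5.18% to 9.06% in KO CP2 M. They ended too without KO CP2 M animals L266 and L291 together, with values of -0.45, 0.42 and 0.34 and an adjusted p of 0.0604, 0.0622 and 0.1. In KO F, edgeR called 0 members, where 0.0859% of all genes were called; 3 members had an unadjusted p under 0.05 and DESeq2 called 0.

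CP2 in WT changed no member by these tests. In F, in M and averaged over both, edgeR called 0 members and 0% of all genes. At an unadjusted p under 0.05 there were 0 members in F, 2 in M and 1 in the average, and 679, 777 and 1031 genes of all tested. DESeq2 called 0 members in each. For Slc25a37 the 95% interval of the averaged CP2 effect in WT was -0.08 to 0.20, for Slc25a39 it was -0.24 to 0.03 and for Slc25a14 it was -0.11 to 0.10.

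The adenine nucleotide and phosphate carriers, 11 members, held 1 member that rose and 1 that fell with vehicle, and 1 that rose and 2 that fell with CP2. Over all genes, 6.67% were called with vehicle and 11.6% with CP2. Slc25a16 (ENSMUSG00000071253, chromosome 10), thought to serve coenzyme A supply, rose under both. F animals given vehicle had 35.6, 39.6, 41.5, 44.6 and 44.6 CPM in WT and 44.2, 45.4, 51.003, 51.3 and 59.1 CPM in KO. M animals given vehicle had 36.9, 36.9 and 38.9 CPM in WT and 44.2, 48.0 and 48.9 CPM in KO. In F the ranges overlapped slightly, and in M they were apart.

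With CP2 in F, Slc25a16 was 36.1, 41.7, 43.0, 44.6 and 49.2 CPM in WT and 43.2, 47.1, 52.9, 59.2 and 60.3 CPM in KO. With CP2 in M it was 35.3, 37.5, 37.5, 38.1 and 40.5 CPM in WT and 42.7, 43.6, 49.2, 49.5 and 49.99 CPM in KO, without overlap. The log2 fold change was 0.30 with vehicle (SE 0.07, adjusted p = 0.00638) and 0.30 with CP2 (SE 0.06, adjusted p = 0.000734). Leaving out any 1 animal kept both averaged calls. In the separate letters it was called with vehicle in F (0.29, adjusted p = 0.0459) and with CP2 in M (0.32, adjusted p = 0.0145). The first call ended in 6 fits that left out 1 animal, at an adjusted p of 0.0664 to 0.151, and the second without WT animal L262 (0.29, adjusted p = 0.0553) or without L266 and L291 together (0.27, adjusted p = 0.12), and with the covariate (0.33, adjusted p = 0.0812). With the out-of-gene share as a covariate it was 0.29 with vehicle (adjusted p = 0.0619) and 0.31 with CP2 (adjusted p = 0.00111).

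The 3 abundant members of this group did not pass the test for genotype. Slc25a4 was 474 to 608 CPM in WT and 457 to 579 CPM in KO with vehicle in F, and 511 to 603 CPM in WT and 525 to 594 CPM in KO with CP2 in F. In M it was 393 to 550 CPM in WT and 460 to 477 CPM in KO with vehicle, and 443 to 513 CPM in WT and 505 to 562 CPM in KO with CP2. Its log2 fold change was -0.07 with vehicle (SE 0.06, adjusted p = 0.542) and 0.12 with CP2 (SE 0.05, adjusted p = 0.131). Slc25a5 gave -0.13 (adjusted p = 0.213) and 0.04 (adjusted p = 0.742), and Slc25a3 gave -0.08 (adjusted p = 0.269) and -0.02 (95% interval -0.09 to 0.06, adjusted p = 0.851).

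Of the calcium-regulated ATP-Mg/phosphate carriers, Slc25a23 fell in KO with vehicle and Slc25a25 fell in KO with CP2, while the interactions did not pass the test (0.11 and -0.06, adjusted p = 0.509 and 0.826). Slc25a23 with vehicle in F was 367, 392, 412, 414 and 422 CPM in WT and 281.2, 315, 326, 345 and 355 CPM in KO, without overlap (-0.31, SE 0.07, adjusted p = 0.00838). In M the ranges overlapped (326 to 356 CPM in WT, 306 to 334 in KO), and the average was -0.20 (adjusted p = 0.0245). This averaged call ended without WT F animal L296 or M animal L310, L319, L300 or L303, at an adjusted p of 0.0512 to 0.0675. With CP2 its average was -0.09 (adjusted p = 0.264), and in F it was 312 to 393 CPM in KO against 377 to 425 in WT (-0.21, adjusted p = 0.0988). Adjusted for the out-of-gene share, the vehicle values were -0.27 in F (adjusted p = 0.115) and -0.17 averaged (adjusted p = 0.216), and with red cell genes as a covariate the average was -0.20 (adjusted p = 0.108).

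Slc25a25 with CP2 was 60.9 to 73.5 CPM in WT F and 51.5 to 65.8 in KO F, and 59.6 to 67.9 CPM in WT M and 50.4 to 57.2 in KO M. The M ranges were apart, and the averaged log2 fold change was -0.22 (SE 0.06, adjusted p = 0.0191). With vehicle its average was -0.16 (adjusted p = 0.197), and in M it was 49.1 to 55.9 CPM in KO and 57.4 to 70.1 in WT, without overlap (-0.34, adjusted p = 0.17). Slc25a42, a coenzyme A carrier, was lower in KO M with CP2, at 27.3 to 38.8 CPM in WT and 22.9 to 29.1 in KO (-0.41, SE 0.11, adjusted p = 0.0133), and its average with CP2 was -0.24 (adjusted p = 0.0365). The M call ended without WT animal L262 (-0.36, adjusted p = 0.0613), with the covariate (-0.46, adjusted p = 0.0651) and without L266 and L291 together (-0.32, adjusted p = 0.152). The averaged call ended in 10 of 20 fits that left out 1 animal, at an adjusted p of 0.0577 to 0.0829, and without L266 and L291 (-0.20, adjusted p = 0.156).

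The malate-aspartate shuttle and glutamate carriers, 5 members, had 0 called by edgeR with vehicle (1 at an unadjusted p under 0.05) and 2 that rose with CP2. In these comparisons 6.67% and 11.6% of all genes were called. Slc25a11, which exchanges malate for oxoglutarate, was 76.7, 77.7, 81.5, 86.2 and 89.8 CPM in WT and 89.5, 96.7, 96.9, 97.0 and 103 CPM in KO with CP2 in M. The ranges overlapped slightly, through a KO animal of 89.5 CPM. Its log2 fold change was 0.23 in M (SE 0.06, adjusted p = 0.00645), 0.05 in F (adjusted p = 0.719) and 0.14 averaged (SE 0.04, adjusted p = 0.0164). Fitted with the out-of-gene share as covariate, the M value was 0.10 (adjusted p = 0.437) and the averaged value 0.10 (adjusted p = 0.0754). Without L266 and L291 they were 0.20 (adjusted p = 0.0732) and 0.13 (adjusted p = 0.0572).

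Slc25a12, the aspartate/glutamate carrier of the shuttle, was 170 to 183 CPM in WT F and 168 to 207 in KO F, and 154 to 177 CPM in WT M and 174 to 183 in KO M with CP2. The averaged difference was small at 0.12 (SE 0.04, adjusted p = 0.0356). The call ended in 9 of 20 fits that left out 1 animal, at an adjusted p of 0.0555 to 0.0771, and without L266 and L291 (0.12, adjusted p = 0.0794). Slc25a13, at 1.97 to 6.396 CPM, gave -0.35 with vehicle (SE 0.17, adjusted p = 0.221) and -0.16 with CP2 (adjusted p = 0.544). The glutamate carriers Slc25a22 (0.06 and 0.02, adjusted p = 0.713 and 0.901) and Slc25a18 (-0.04 and -0.02, adjusted p = 0.833 and 0.895) lay near 0 with vehicle and CP2.

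Of the di- and tricarboxylate carriers, Slc25a10, which exchanges malate or succinate for phosphate, was higher in KO in 2 of the 4 separate comparisons. With vehicle in F it was 15.6, 15.97, 16.1, 16.4 and 17.5 CPM in WT and 17.9, 19.4, 19.7, 21.05 and 21.6 CPM in KO. With CP2 in M it was 14.3, 15.3, 16.2, 16.4 and 16.7 CPM in WT and 19.3, 20.2, 21.2, 21.3 and 21.7 CPM in KO. Both pairs were apart, with log2 fold changes of 0.29 (SE 0.08, adjusted p = 0.0329) and 0.39 (SE 0.08, adjusted p = 0.00141).

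With vehicle in M, Slc25a10 was 18.1, 18.6 and 19.7 CPM in WT and 13.7, 16.98 and 19.2 CPM in KO, a difference of -0.18 that did not pass the test (adjusted p = 0.521), and the test of F against M gave 0.47 (SE 0.13, adjusted p = 0.197). With CP2 in F it was 15.5 to 17.99 CPM in WT and 16.3 to 20.1 in KO (0.09, adjusted p = 0.654). Averaged, it was 0.06 with vehicle (adjusted p = 0.689) and 0.24 with CP2 (SE 0.06, adjusted p = 0.00428). Leaving out any 1 animal kept the CP2 calls, while the vehicle call in F ended in 6 of 10 such fits, at an adjusted p of 0.0552 to 0.076 (without KO L246 or L279 or WT L252, L278, L295 or L296). It ended also with either covariate, at an adjusted p of 0.165 with the out-of-gene share and 0.0901 with red cell genes. An opposite-strand gene, Gm11788, shares 6.599% of the exon length of Slc25a10. Such overlap was 14.9% for Slc25a33, 8.9% for Slc25a11, 4.8% for Slc25a25 and 3.2% for Slc25a23, which were also called.

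The citrate carrier Slc25a1, which exports citrate for lipid synthesis, gave -0.15 with vehicle (adjusted p = 0.382) and 0.18 with CP2 (adjusted p = 0.154). The carnitine/acylcarnitine carrier Slc25a20, the entry of fatty acids to oxidation, gave -0.11 (adjusted p = 0.532) and 0.07 (adjusted p = 0.682). In these averaged comparisons, where 6.67% and 11.6% of all genes were called, edgeR called none of the 5 amino acid carriers. Of these 5, 0 had an unadjusted p under 0.05. Among them, Slc25a44, a branched-chain amino acid carrier, was the most abundant at 24.8 RPKM, and Slc25a38, a glycine carrier for heme synthesis, had 8.50 RPKM.

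Of the nucleotide and cofactor carriers, Slc25a51, the mitochondrial NAD carrier, was 104 to 131 CPM over all animals, with log2 fold changes of 0.07 (95% interval -0.02 to 0.15, adjusted p = 0.392) and 0.06 (adjusted p = 0.312). The pyrimidine nucleotide carriers Slc25a33 and Slc25a36, the folate or FAD carrier Slc25a32 and the S-adenosylmethionine carrier Slc25a26 were not called for genotype or CP2.

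Slc25a46, which sits in the outer membrane and serves membrane dynamics, gave 0.03 with vehicle (adjusted p = 0.8) and 0.06 with CP2 (adjusted p = 0.438). Of the 8 members without an assigned role, Slc25a34 was called. With CP2 it was 5.82 to 7.6003 CPM in WT F and 2.43 to 5.83 in KO F, and 3.86 to 7.43 CPM in WT M and 2.88 to 6.16 in KO M. The log2 fold change was -0.54 (SE 0.14, adjusted p = 0.00895) with CP2 and -0.49 (SE 0.17, adjusted p = 0.0656) with vehicle. At a mean of 5.40 CPM it is the least abundant called member.

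**Figure D5:**
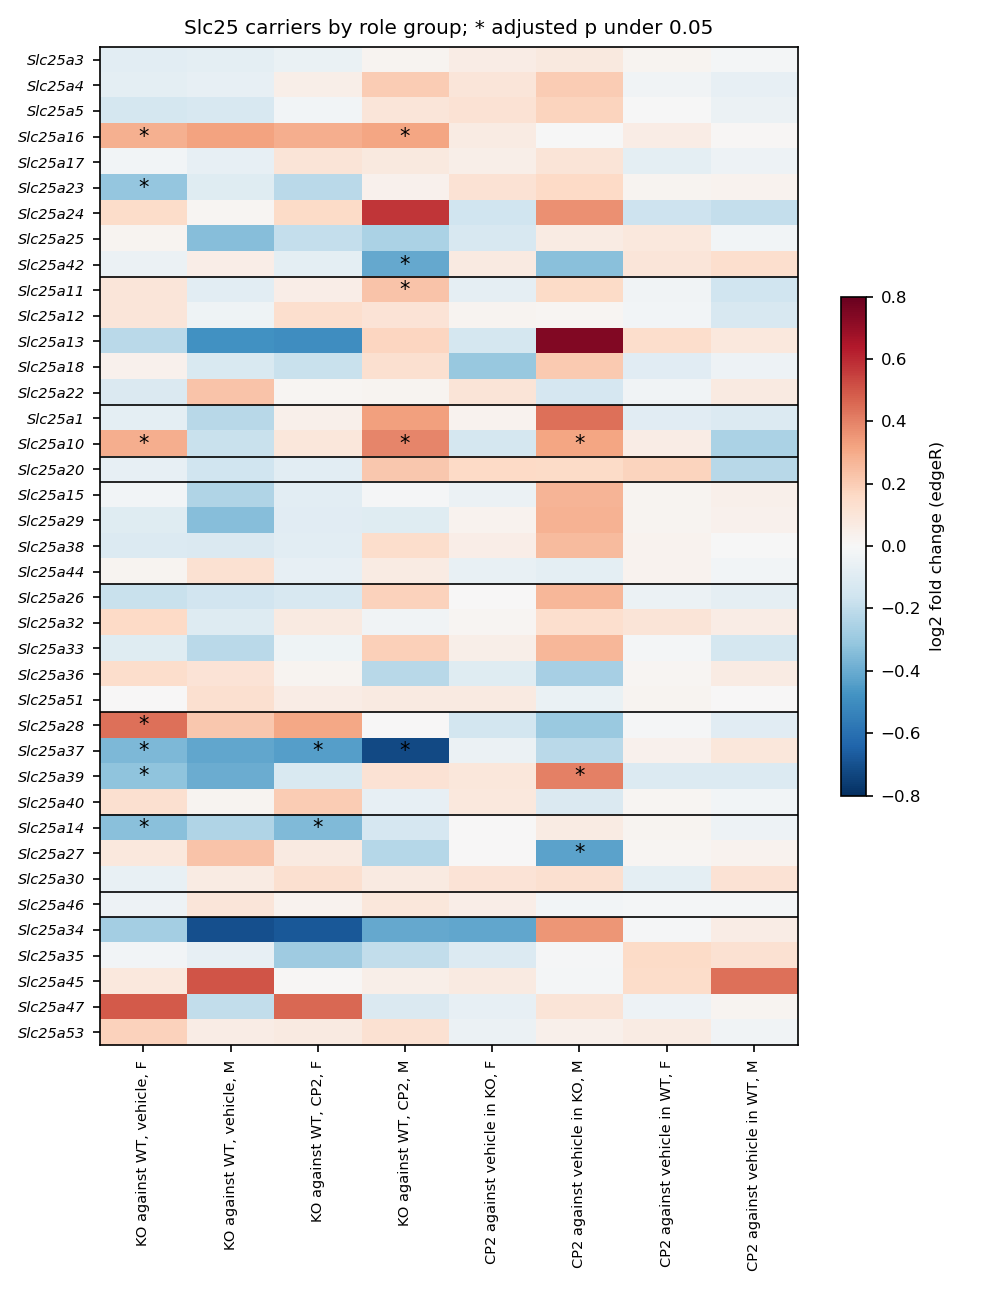
Log2 fold change of 39 tested members with a mean of at least 1 CPM (rows, in blocks by role, the last block without a role) in 8 comparisons of 2 groups (columns). Stars mark an adjusted p under 0.05. Stars for KO against WT lie mostly with Slc25a37, Slc25a14, Slc25a16 and Slc25a10. The 2 columns of CP2 in WT hold 0 stars, as do those of KO against WT with vehicle in M and of CP2 in KO F.

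The tests of differences between effects called no member. For the genotype by CP2 interaction, 0.715% of all genes were called by edgeR, 11 members had an unadjusted p under 0.05, and DESeq2 called 1, as did edgeR without L201. For the difference of the vehicle KO effect between F and M, 0.102% of all genes were called, 4 members had an unadjusted p under 0.05 and DESeq2 called 1. For the difference of the CP2 effect in KO between F and M these were 0.691%, 10 and 1.

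Between title letters, averaged over genotype and treatment, 8 members were called, where 10.3% of all genes were. Slc25a33 (-0.22), Slc25a5 (-0.16), Slc25a4 (-0.14), Slc25a16 (-0.14), Slc25a11 (-0.12) and Slc25a23 (-0.12) were lower in M, and Slc25a40 (0.16) and Slc25a42 (0.19) higher. With the out-of-gene share as a covariate 0 of the 8 calls remained. In the order above the values were -0.07, -0.06, -0.07, -0.16, -0.03, -0.08, 0.06 and 0.22, with an adjusted p of 0.275 to 0.839, and that share was 9.05% to 13.2% in 3 of the 4 M groups against 5.09% to 11.7% in F. Without L201 the call of Slc25a42 ended (0.17, adjusted p = 0.0505) and the other calls named held (adjusted p of 0.00176 to 0.0351). Over 36 fits that left out 1 animal, the call of Slc25a40 ended in 23, Slc25a16 in 16, Slc25a42 in 13, Slc25a23 in 6 and Slc25a4 in 1.

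Other genes of mitochondrial transport were counted from lists drawn up by function, with earlier results of these data known. Unlike the members, these genes were fitted only in the main setting, with no covariate and no animal left out. How far their calls depend on the out-of-gene share or on single animals was not tested. Beside these lists, 6.67% of all genes were called in KO against WT with vehicle and 11.6% with CP2. For CP2 in KO 3.91% were called, and for the interaction 0.715%. Of 12 genes for importing carriers into the membrane, 3 rose and 1 fell with vehicle, and 2 rose with CP2. Tomm20, a receptor of the outer membrane, was 316 to 347 CPM in WT F and 379 to 425 in KO F with vehicle, and 301 to 305 CPM in WT M and 331 to 398 in KO M (0.26, SE 0.05, adjusted p = 0.000699). With CP2 it was 0.30 (SE 0.04, adjusted p = 7.88e-06). Timm29, a subunit of the carrier translocase, rose under both treatments (0.21 and 0.16, adjusted p = 0.0189 and 0.0259), Timm9 rose with vehicle (0.27, adjusted p = 0.0157) and Tomm40, the outer membrane pore, fell with vehicle (-0.21, adjusted p = 0.024).

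Of 18 other inner membrane transporters, Sfxn5, a sideroflexin, was called. It was lower in KO with vehicle (-0.41, SE 0.09, adjusted p = 0.00325) and higher with CP2 than with vehicle in KO (0.31, SE 0.08, adjusted p = 0.024), and its interaction passed the test (0.47, SE 0.11, adjusted p = 0.0407). Of 7 shuttle enzymes, Gpd2, the mitochondrial glycerol phosphate dehydrogenase, fell with vehicle (-0.20, adjusted p = 0.0171) and CP2 (-0.15, adjusted p = 0.024), Gpd1, its cytosolic partner, fell with CP2 (-0.20, adjusted p = 0.0169) and Mdh2, the matrix malate dehydrogenase, rose with CP2 (0.14, adjusted p = 0.0221). The outer membrane channels Vdac1, Vdac2 and Vdac3 were not called, at an adjusted p of 0.895 to 0.967 with vehicle and 0.13 to 0.365 with CP2. Neither were Ucp2, Ucp3, Mtch1 and Mtch2, carriers named otherwise, at 0.0572 to 0.624 and 0.246 to 0.902.

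Markers of other cell types moved with some of these groups. For scale, 9.99% of all genes were called in KO against WT with CP2 in M and 4.96% with vehicle in F. For CP2 against vehicle in KO, averaged over letters, 3.91% were. With CP2 in M, 2 of 5 astrocyte markers were called higher in KO, with a summed level of 1761 to 3009 CPM in KO and 1211 to 1533 in WT, without overlap. In the same comparison, 4 of 5 microglial markers were called higher in KO, with a summed level of 251.8 to 322.4 CPM in KO and 200 to 250 CPM in WT. In KO, averaged over letters, 3 of 5 oligodendrocyte and 3 of 5 microglial markers were called higher with CP2 than with vehicle. With vehicle in F, 2 of 4 excitatory neuron markers were called lower in KO, with 2377 to 3946 CPM summed in KO and 3406 to 4406 in WT. With vehicle in M the sums lay the other way without overlap, at 3575 to 4079 CPM in KO and 2860 to 3451 in WT. Hippocampal markers there summed to 250.9 to 298.8 CPM in KO and 175 to 206 in WT. Their part in the carriers' differences was not tested.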

How the data were processed

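PolyA RNA from brain of 36 mice was sequenced on Illumina TruSeq libraries, per the labels' protocols. The deposited table holds raw counts per Ensembl mouse gene and animal. STAR, HTSeq and GRCm39 are named in the submitters' processing notes, without role; versions and whether counting used strand are not given in the sources used here. The table's 5 summary rows (reads outside genes, ambiguous and others) were left out of library sizes and tests. Symbols were found for 52073 of 56980 ids (91.4%).

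Counts were tested with edgeR 4.0.16 in R 4.3.3: filter on low counts over the 8 groups, TMM normalization, and a robust quasi-likelihood fit of all 36 animals with 16 contrasts, adjusted by Benjamini-Hochberg over 25601 genes, called at an adjusted p under 0.05. SE is the log2 fold change over the root of F. RPKM used union exon lengths of a GRCm38 annotation, not the build named above, so it ranks levels only roughly.

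Title numbers name 1 animal each. The p-values set group differences against the spread between animals, estimated over all 8 groups together and not only in the groups compared. Replicates were compared: over 66 pairs within groups the lowest mean chi-square per gene was 12.6, so each was counted as its own replicate. On simulated counts with 200 of 24772 genes changed 3-fold, 96.5% were recovered with vehicle in F and 92.5% in M. There 10 and 11 unchanged genes were called as well. The carriers' called changes were all smaller than 3-fold, so recovery at their size was not measured. Named with full values were members called in the genotype, CP2 in KO or interaction contrasts (up to 8 a contrast by size, mean of at least 1 CPM) and, called or not, others always given, among them Slc25a4, Slc25a5, Slc25a3, Slc25a11 and Slc25a12; members that differed between letters were named after their values were seen. The members and lists were chosen with earlier results of these data known. Alternatives were other size factors, no filter, DESeq2 1.42.0, covariates, and leaving out animals. Results for 1 member are not reported here.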

Additional observations from a re-analysis of the deposited data

Results flagged for a closer look

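In groups of 5 animals, the carriers named were examined for an animal far from the other 4, over 150 sets of values, and 7 had such a gap; chance gives about 1 in 20. Slc25a39 accounted for 3. KO vehicle F animal L281 was lowest at 41.9 CPM (next 56.4), KO CP2 F animal L234 was highest at 73.1 CPM (next 57.1), and WT CP2 F animal L272 was lowest at 62.8 CPM (next 63.8), within a narrow group. Slc25a37 was lowest in WT CP2 M animal L267 at 26.5 CPM (next 31.7), which still lay above every KO CP2 M animal. Slc25a25 was highest in KO vehicle F animal L246 at 87.1 CPM (next 59.5). Slc25a3 was highest in KO CP2 F animal L227 at 357 CPM (next 334), and Slc25a18 in WT vehicle F animal L278 at 94.0 CPM (next 87.5).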

How the results depend on the processing

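Over 43 calls of a member in a comparison, 40 held with other size factors in edgeR, 37 with no filter on low counts, 42 with DESeq2, 14 with the out-of-gene share as a covariate, and, for alternatives chosen after seeing the data, 40 with red cell genes as a covariate and 33 without KO CP2 M animals L266 (lowest out-of-gene share) and L291 (Xist); none changed sign. The cause was not tested; the last has fewer samples. With the out-of-gene share as a covariate, members called in KO against WT were 0 with vehicle in F, 1 with vehicle averaged and 3 with CP2 in M, those for CP2 in KO were 0 in M and 0 averaged, and 0 remained for M against F. Without L266 and L291 the counts were 2 for KO against WT with CP2 in M, and 0 for CP2 in KO, in M and averaged. With red cell genes as a covariate 1 was called with vehicle in M. DESeq2 called 2 with vehicle in M, 4 with CP2 in F, 8 with CP2 in M, 5 for CP2 in KO M, 2 for CP2 in KO averaged, and 1 each for the interaction and the 2 differences between F and M.

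Averaged values that changed sign were uncalled, but not all were near 0 before the change. Leaving out 1 animal at a time, without a covariate, gave Slc25a1 -0.27 to -0.068 with vehicle. Such fits gave Slc25a20 -0.15 to -0.074 with vehicle and 0.12 to 0.19 for CP2 in KO. Values after the change of sign follow. With the out-of-gene share these were, with vehicle, Slc25a1 0.022, Slc25a18 0.080 and Slc25a20 0.019; with CP2, Slc25a20 -0.0014, Slc25a22 -0.018 and Slc25a5 -0.0033; and for CP2 in KO, Slc25a11 -0.061, Slc25a14 -0.099 and Slc25a20 -0.012. With no filter Slc25a11 was -0.0039 with vehicle, with red cell genes Slc25a4 was 0.024 with vehicle, and for CP2 in KO Slc25a51 was -0.0031 with other size factors and -0.0031 with DESeq2.

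Leaving out 1 animal at a time kept 22 of the 43 calls in every fit and ended 21 in at least 1. Members called in KO against WT ranged from 3 to 8 with vehicle in F, 0 to 1 in M and 5 to 8 averaged, and from 2 to 5 with CP2 in F, 4 to 7 in M and 8 to 11 averaged. For CP2 in KO they ranged from 0 to 0 in F, 0 to 4 in M and 0 to 4 averaged, and for CP2 in WT from 0 to 0. The interaction gave 0 to 1, the F minus M difference 0 to 0 for the vehicle KO effect and 0 to 3 for CP2 in KO, and M against F 4 to 10. Values that changed sign in such fits ranged, with vehicle, from -0.014 to 0.026 for Slc25a11 and -0.12 to 0.010 for Slc25a18; with CP2, from -0.077 to 0.018 for Slc25a18 and -0.019 to 0.041 for Slc25a22; and for CP2 in KO, from -0.0078 to 0.038 for Slc25a12, -0.099 to 0.035 for Slc25a18, -0.059 to 0.0061 for Slc25a22 and -0.021 to 0.041 for Slc25a51. No paired analysis was possible because each title number occurs once, so the groups share no replicate numbers. Counting depth limits most the members under a mean of 1 CPM.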
